A study of Mus musculus with 4 samples.

Results

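Retnla high macrophages are cell barcodes of subcutaneous Pan02 mouse tumours that carried macrophage RNA together with several molecules of Retnla messenger RNA. A barcode was taken when it had at least 200 genes, at most 20% mitochondrial UMIs (unique molecular identifiers, each a counted RNA molecule), at least 3 Retnla UMIs, at least 5 UMIs of Lyz2, C1qa, C1qb and C1qc together, and at least 1 Csf1r UMI. It further had fewer than 2 UMIs of the resident macrophage genes Lyve1, Cd163, Cd209f and Cd209g together, no UMI of Cd3d, Cd3e or Cd3g, and fewer than 3 Dcn UMIs. These conditions held for 740 of 63443 kept cells and of 10358 cells that passed the macrophage conditions without regard to Retnla. Since Retnla and these 13 further genes chose the cells, their levels are given as a description and carry no test.

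The cells came from 4 libraries, each made from 3 samples combined, and the single tumours cannot be separated. The anti-PD-1 mice received an antibody against the T cell checkpoint receptor PD-1 (clone RMP1-14), the anti-LIF mice an antibody against the cytokine LIF, the combo mice both antibodies, and the control mice IgG. All mice were female C57BL/6 mice of 6 to 7 weeks with Pan02 cells, a mouse pancreatic cancer line, injected under the skin of the right flank, and were divided into groups at a tumour size of about 50 mm3. The protocol names 200 µg of anti-PD-1 with 25 mg/kg of IgG or anti-LIF, given 3 times weekly, in a text shared by all groups. Each treatment is thus 1 library, and no difference between treatments was tested. Sets of 4 values below are for anti-PD-1, anti-LIF, combo and control, and sets of 3 leave out control. Intervals in brackets are exact 95% intervals for counting error only.

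Retnla encodes a small secreted cysteine-rich protein, RELM alpha (also called Fizz1), that mouse macrophages make when the type 2 cytokines IL-4 and IL-13 signal through the transcription factor STAT6. With Arg1, Chil3, Mrc1 and Mgl2 it is a classical marker of alternatively activated mouse macrophages, which are known from helminth infection, allergy, wound repair and serous cavities. Tumour macrophages mostly derive from blood monocytes that enter through the chemokine receptor CCR2, whereas resident tissue macrophages with Lyve1, Cd163 and Folr2 can persist in tissue for long times.

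Promoter sequences are shown for Retnla, the gene the cells were chosen on, and for Ear2, Lyz1 and Aldh1a2, which stood far higher in these cells than in other macrophages (values below). Each run holds up to 250 bases before the gene start from RefSeq (build GRCm38.p6), ending before the GENCODE start where that lies earlier, written 5′ to 3′ on the gene's strand. Capitals mark matches to TTCNNNNGAA, a palindrome, so that a search of 1 strand covers both, with the spacing that STAT6 is known to prefer.
Retnla (chr16:48842359-48842550, plus strand): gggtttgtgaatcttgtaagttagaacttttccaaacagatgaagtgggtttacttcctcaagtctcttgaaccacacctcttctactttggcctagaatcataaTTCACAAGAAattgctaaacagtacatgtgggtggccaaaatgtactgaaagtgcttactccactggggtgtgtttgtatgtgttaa
Ear2 (chr14:44102404-44102653, plus strand): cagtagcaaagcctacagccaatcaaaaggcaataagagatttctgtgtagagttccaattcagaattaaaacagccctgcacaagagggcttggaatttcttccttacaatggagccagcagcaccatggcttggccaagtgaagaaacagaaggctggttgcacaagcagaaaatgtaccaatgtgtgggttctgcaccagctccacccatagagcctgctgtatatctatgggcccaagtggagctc
Lyz1 (chr10:117292869-117293118, minus strand): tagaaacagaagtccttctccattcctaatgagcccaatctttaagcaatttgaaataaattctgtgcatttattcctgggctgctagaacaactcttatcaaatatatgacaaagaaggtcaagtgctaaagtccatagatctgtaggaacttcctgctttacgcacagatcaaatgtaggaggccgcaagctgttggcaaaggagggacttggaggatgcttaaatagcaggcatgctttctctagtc
Aldh1a2 (chr9:71215539-71215788, plus strand): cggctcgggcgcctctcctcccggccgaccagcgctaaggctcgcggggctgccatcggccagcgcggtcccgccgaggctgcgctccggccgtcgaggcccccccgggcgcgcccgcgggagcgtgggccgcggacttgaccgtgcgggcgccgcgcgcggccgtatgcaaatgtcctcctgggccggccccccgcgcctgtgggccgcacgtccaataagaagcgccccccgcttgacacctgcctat
The Retnla window held 1 match, TTCACAAGAA, which began 145 bases before the RefSeq start. No match lay in the windows of Ear2, Lyz1, Aldh1a2, Mgl2, Mrc1, Clec4b1, Ms4a8a, Ccl6 and Cx3cr1, so 1 of the 10 genes found in the table held it. Of 14 genes looked up, Clec10a, Alox15, Gfra2 and Arg1 had no entry. Among all 32851 promoter windows of 250 bases, 5.85% held the motif. The shorter palindrome TTCNNNGAA, in 7.02% of all windows, had no match in the 10 genes. A match describes the letters and is not a measured binding site.

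The libraries held 15191 to 20393 barcodes and 57720774 to 111164731 UMIs, and 14014 to 18640 cells per library were kept. Between 277 and 392 barcode sequences were found in both libraries of each pair. No sequence was a Retnla high macrophage in both libraries of a pair. Retnla UMIs were also found in T cells, which should lack the gene. Of these, 0.636% in anti-PD-1, 4.81% in anti-LIF, 6.87% in combo and 0.112% in control had a Retnla UMI. Their median depths were 1320, 1270, 1653 and 1736 UMIs per cell. At the threshold of 3 UMIs, 0 of 1257 anti-PD-1, 3 of 831 anti-LIF, 3 of 1135 combo and 1 of 6256 control T cells were found. Macrophages outside the resident type and under the threshold had a Retnla UMI in 1.20%, 8.46%, 11.4% and 0.232% of cells, at median depths of 2791, 2532, 3890 and 3096 UMIs. These shares were above those of T cells in each library, at a greater depth, and the control share rests on 1 cell. The level scaled to summed UMIs (CPM, defined below) went the other way. Retnla had 3.82, 38.1, 38.4 and 0.861 CPM in T cells, against 3.51, 27.3, 26.8 and 0.492 CPM in these macrophages. The counting intervals overlapped in anti-PD-1, anti-LIF and control. T cells at or above the threshold were kept in this level, while such macrophages were left out. Keratin positive cells without a Csf1r UMI had a Retnla UMI in 1.11%, 8.82%, 16.85% and 0.283%, at 0.916, 12.1, 14.0 and 0.465 CPM. Dcn positive cells without a Csf1r UMI had one in 0.697%, 7.20%, 13.1% and 0.300%, at 0.703, 13.6, 16.9 and 0.2945 CPM. Both classes were deeper than the macrophages under the threshold. At least 3 Retnla UMIs were found in 6 keratin positive and 9 Dcn positive combo cells. The part of free RNA in the macrophages under the threshold was not tested.

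Retnla high macrophages were counted mainly in the libraries that had received anti-LIF. There were 33 in anti-PD-1, 316 in anti-LIF, 383 in combo and 8 in control. As a share of kept cells this was 0.229% [0.158, 0.322] in anti-PD-1, 2.25% [2.02, 2.51] in anti-LIF, 2.34% [2.11, 2.58] in combo and 0.0429% [0.0185, 0.0846] in control. The intervals of anti-LIF and combo overlap, and both lie above those of anti-PD-1 and control. Part of this follows the number of macrophages, since 3229 cells passed the macrophage conditions in anti-PD-1, 3134 in anti-LIF, 3556 in combo and 439 in control. Within the gated macrophages the share was 1.02% [0.705, 1.43] in anti-PD-1, 10.1% [9.05, 11.2] in anti-LIF, 10.8% [9.77, 11.8] in combo and 1.82% [0.790, 3.56] in control. On this denominator the anti-PD-1 and control intervals overlap. These are single libraries, so the spread between tumours is unknown.

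**Figure D1:**
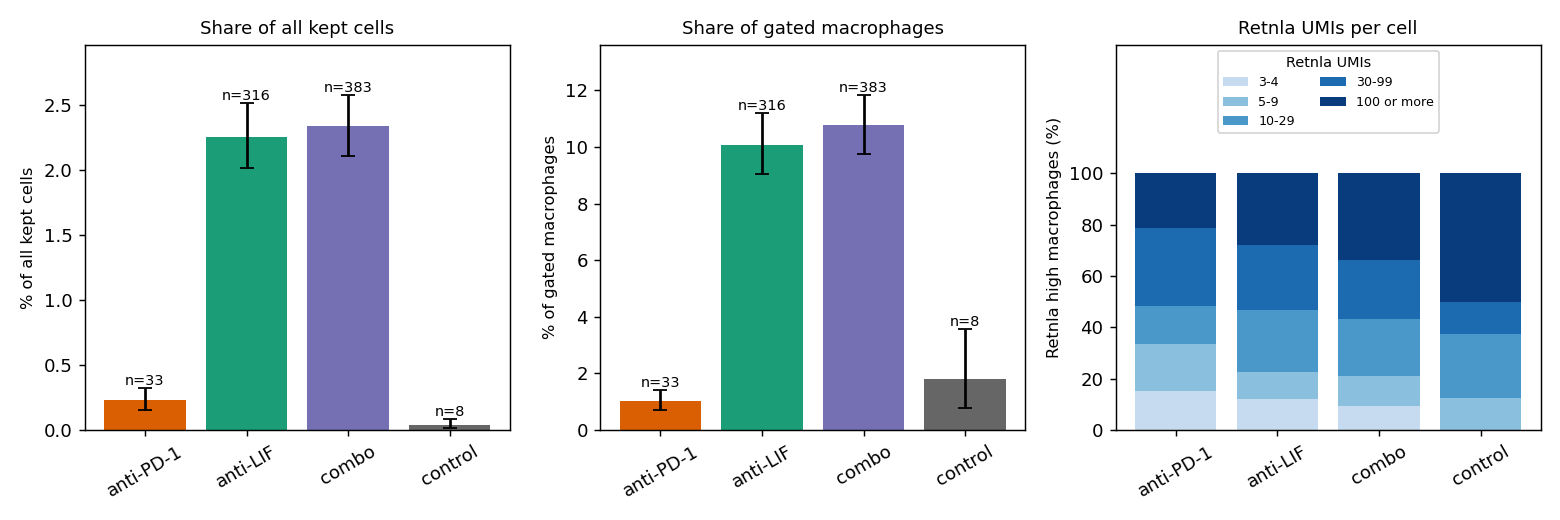
Bars give Retnla high macrophages as a percentage of all kept cells (left) and of gated macrophages (middle) in each library, with exact 95% intervals for counting error and the number of cells above; the right panel divides them by Retnla UMIs per cell. The anti-LIF and combo bars stand at 2.25% and 2.34% of kept cells, and the control bar rests on 8 cells.

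Retnla content per cell was wide in each library that held more than a few such cells. Retnla UMIs per cell ran from 3 to 284 with a median of 31 in anti-PD-1, from 3 to 1762 with a median of 34.5 in anti-LIF, from 3 to 2935 with a median of 43 in combo, and from 5 to 247 with a median of 97 in control. At least 100 Retnla UMIs were found in 7 anti-PD-1, 88 anti-LIF, 129 combo and 4 control cells. Retnla made up 0.955% of all UMIs of these cells in anti-PD-1, 1.67% in anti-LIF, 1.80% in combo and 1.01% in control. At the threshold, 5, 21, 20 and 0 cells had exactly 3 Retnla UMIs, while 7, 35, 48 and 0 macrophages with 2 UMIs and 30, 178, 253 and 1 with 1 UMI fell just outside. Of all Retnla UMIs in kept cells, the Retnla high macrophages held 46.6%, 63.3%, 57.1% and 74.8%. Retnla was not limited to them: among macrophages of the resident type (at least 2 UMIs of Lyve1, Cd163, Cd209f and Cd209g) 3 or more Retnla UMIs were found in 42.6% of 537 combo, 28.7% of 300 anti-LIF and 20.6% of 107 anti-PD-1 cells, and the control library had no resident-type cell.

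All 11 macrophage markers, 4 of which belong to the selection, were detected in each library. They summed to 14490, 12350, 13210 and 6527 CPM (UMIs per 1000000 UMIs of the summed cells), against 20290, 16140, 20360 and 18100 CPM in macrophages without a Retnla UMI, so the sum was lower in each library and lowest in the 8 control cells. Of the markers given for these cells, Mgl2 and Clec10a (C-type lectins that bind galactose-type sugars) and Mrc1 (the mannose receptor) were detected in each library as well. Defining genes of eosinophils, which share Ear genes with macrophages, were near 0: their 5 markers summed to 4.87, 5.40, 10.6 and 12.3 CPM and Epx had no UMI. Markers of type 2 dendritic cells summed to 282, 511, 440.4 and 269.9 CPM, against 247.5, 446, 379 and 319 CPM in macrophages without a Retnla UMI of the same libraries. Of these 8 markers Flt3 and Zbtb46 were detected in anti-LIF and combo and had no UMI in anti-PD-1 and control. At least 3 UMIs of the 8 were found in 18.2%, 35.4%, 36.0% and 25% of Retnla high macrophages, against 11.7%, 16.8%, 18.6% and 20.2% of the shallower Retnla zero ones. The 7 fibroblast markers, with Dcn of the selection among them, summed to 803, 584, 606 and 258 CPM, against 685, 879.6, 934 and 885 CPM in macrophages without Retnla. Pan02 markers summed to 97.4, 121, 90.7 and 773 CPM, against 193, 191.5, 173.5 and 427 CPM, and 1 of the 8 control cells had at least 3 of these UMIs. Neutrophil markers summed to 146, 44.3, 199.8 and 0 CPM with no Ly6g, against 1234, 271.6, 218.9 and 226.5 CPM in macrophages without a Retnla UMI. At least 3 of these UMIs were found in 3.77%, 1.74%, 2.44% and 3.02% of the latter. Retnla high macrophages had no UMI of the adipocyte markers in any library. At least 1 UMI of Krt8, Krt18, Col1a1, Col3a1, Cd79a, S100a8, S100a9, Trbc2 or Pecam1 was found in 22 of 33, 239 of 316, 330 of 383 and 3 of 8 cells, and doublets were not removed here. The part of these RNAs in the results was not tested.

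The comparison with Retnla zero macrophages asks which other genes go with Retnla among macrophages of the same tumours. Retnla zero macrophages passed the same conditions without a Retnla UMI (3052 in anti-PD-1, 2305 in anti-LIF, 2335 in combo and 430 in control). Retnla high macrophages had far more RNA of Ear2, Lyz1, Aldh1a2, Cd226, Clec4b1 and Ms4a8a, more of Mgl2, Ccl6, Lpl and Irf4, and less of Ly6c2, Cx3cr1, Stab1, Nt5e, Apoe and Spp1. UMIs were summed per library and cell group, and the 8 sums were tested with edgeR's quasi-likelihood test with the library as a block. Of 9607 genes tested, 726 were higher (7.56%) and 813 lower (8.46%) in Retnla high macrophages at an adjusted p under 0.05. Counts moved with single libraries: leaving out anti-LIF gave 300 higher and 487 lower, and leaving out combo gave 218 and 282. Retnla high macrophages were also deeper, with median UMIs of 5222, 4636, 6386 and 9528 per cell, against 2802, 2476, 3784 and 3096 in Retnla zero macrophages. With cells of at least 3000 UMIs in both groups, 637 genes were higher and 777 lower.

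**Figure D2:**
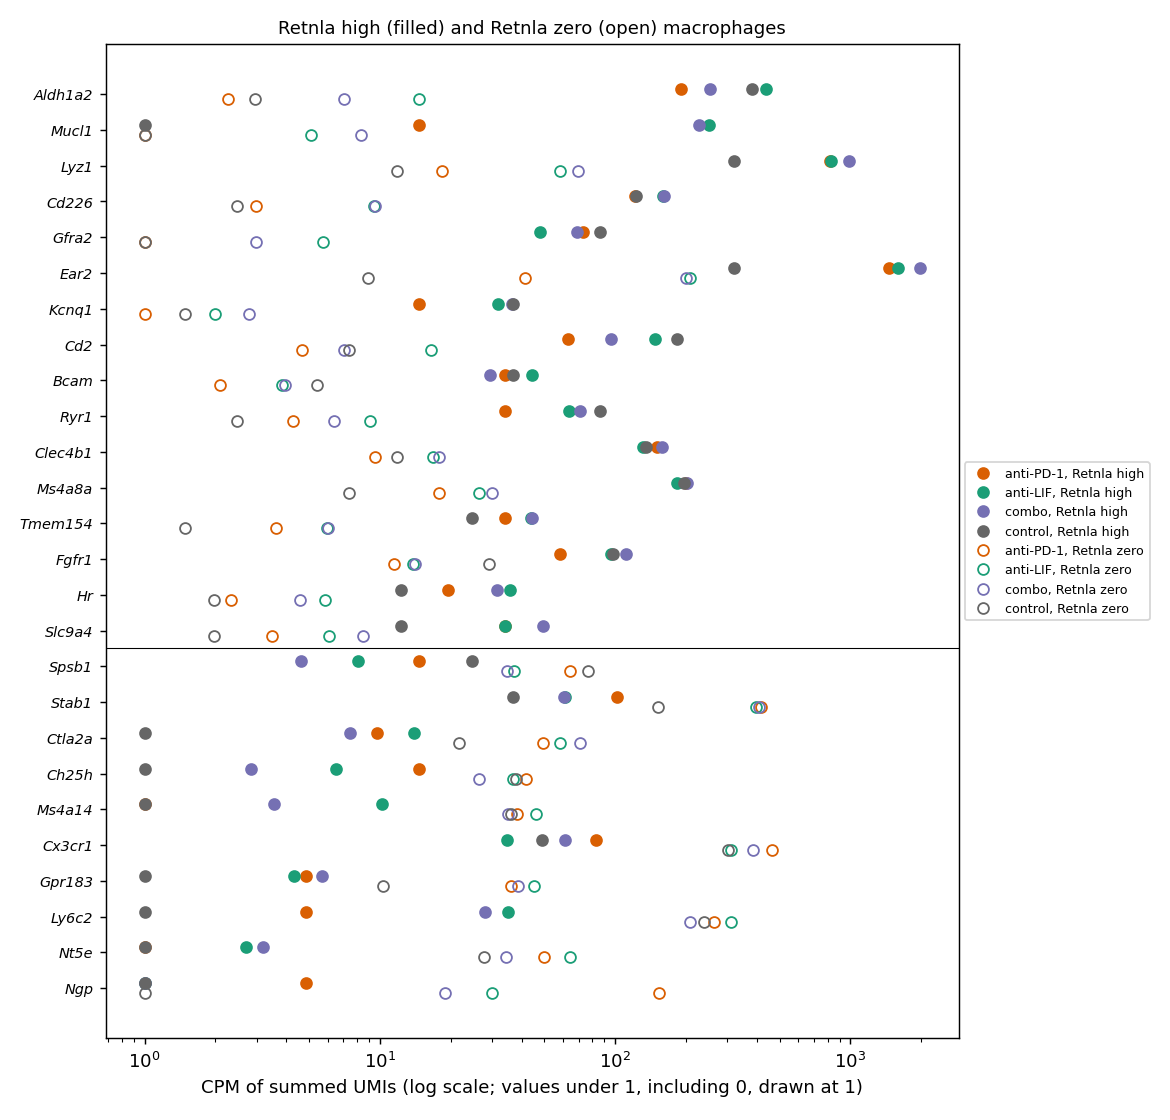
Each row is a gene and the horizontal axis is its level in CPM of summed UMIs on a log scale; filled points are Retnla high and open points Retnla zero macrophages, coloured by library. For the genes above the line each library's filled point lies right of its open point, except Mucl1 in control where both were 0; the genes below the line show the reverse, with Ngp at 0 in both groups of control.

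Ear2, an eosinophil-associated ribonuclease that is also made by macrophages, had 1461, 1598, 1974 and 319 CPM in Retnla high macrophages of anti-PD-1, anti-LIF, combo and control, against 41.2, 207, 200.5 and 8.86 CPM in Retnla zero macrophages of the same libraries. It was higher in all 4 libraries and the groups did not overlap (log2 fold change 3.93, SE 0.31, edgeR adjusted p = 3.14e-07). A UMI of Ear2 was found in 66.7%, 69.9%, 77.0% and 75% of Retnla high macrophages, against 3.60%, 10.8%, 11.7% and 3.49% of Retnla zero ones. With each cell thinned to 2000 UMIs, which left out 6, 60, 52 and 1 Retnla high macrophages and 1140, 923, 573 and 104 Retnla zero ones, these shares were 60.9%, 66.1%, 72.5% and 34.5% in Retnla high macrophages, against 3.24%, 10.97%, 9.72% and 1.66%. The control share rests on 7 cells and was less than in the unthinned cells. Ear2 belongs to a family of near-identical genes, and how reads shared by copies were counted was not given in the sources used here.

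Aldh1a2, which makes retinoic acid from retinal, had the highest fold change of the named genes. Its level was 189.9, 436, 254 and 380.3 CPM in Retnla high macrophages, against 2.25, 14.7, 7.02 and 2.95 CPM in Retnla zero macrophages, for anti-PD-1, anti-LIF, combo and control. It was far higher in each library (log2 fold change 5.42, SE 0.21, edgeR adjusted p = 1.4e-10), and 53.5% of anti-LIF and 49.4% of combo Retnla high macrophages had a UMI, against 2.65% and 2.06% of Retnla zero ones. Thinned to 2000 UMIs, 27.9%, 37.1%, 29.7% and 37.8% of Retnla high macrophages had an Aldh1a2 UMI, against 0.455%, 2.03%, 1.10% and 0.488% of Retnla zero ones.

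Lyz1, a lysozyme gene with the near-identical neighbour Lyz2, had 818, 830.0, 985 and 319 CPM in Retnla high macrophages and 18.4, 58.3, 69.4 and 11.8 CPM in Retnla zero ones (log2 fold change 4.38, SE 0.25, edgeR adjusted p = 1.1e-08). A Lyz1 UMI was found in 30.3%, 34.2%, 39.7% and 50% of Retnla high macrophages, against 2.49%, 5.73%, 8.74% and 2.56% of Retnla zero ones. Lyz2 was a gene of the selection in both groups, and reads that fit both copies may have been split between them.

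Cd226, the receptor DNAM-1 for nectin-family ligands, had 122, 160.3, 161 and 123 CPM in Retnla high macrophages, against 2.98, 9.43, 9.54 and 2.46 CPM in Retnla zero ones (log2 fold change 4.35, SE 0.17, edgeR adjusted p = 1.4e-10). Clec4b1, a C-type lectin receptor of myeloid cells, had 151, 132, 159 and 135 CPM in Retnla high macrophages, against 9.50, 16.9, 17.9 and 11.8 CPM in Retnla zero ones (log2 fold change 3.27, SE 0.14). Ms4a8a, a membrane protein of the CD20 family, had 199.6, 184, 202 and 196 CPM in Retnla high macrophages, against 17.9, 26.4, 29.9 and 7.39 CPM in Retnla zero ones (log2 fold change 3.04, SE 0.15). The Retnla high values of each of these 3 genes lay close together over the libraries, and the groups did not overlap. In anti-LIF and combo, Retnla high macrophages held 3.43% and 3.14% of the UMIs of all kept cells, but 44.9% and 51.1% of the Ear2, 50.7% and 52.4% of the Lyz1, 36.4% and 38.9% of the Cd226, and 29.97% and 36.1% of the Aldh1a2 UMIs.

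Other genes with a high fold change included Gfra2, a receptor for neurturin (log2 fold change 4.30, SE 0.355), Cd2, an adhesion receptor best known from T cells (3.59, SE 0.155), and Fgfr1, a fibroblast growth factor receptor (2.80, SE 0.17). Cd2 had 63.3, 148, 95.7 and 184 CPM in Retnla high macrophages, against 4.67, 16.5, 7.02 and 7.39 CPM in Retnla zero ones, while the 7 T cell markers, of which Cd3d, Cd3e and Cd3g were held at 0 by the selection, summed to 9.74, 8.64, 7.80 and 24.5 CPM in Retnla high macrophages. Kcnq1, Bcam, Ryr1, Tmem154, Hr and Slc9a4 were higher by 2.66 to 3.91 on the log2 scale. Mucl1 was different in kind: its 250.4 CPM in anti-LIF and 226 CPM in combo came from 6.96% and 8.62% of the cells, of which 10 cells held 96.8% and 93.4% of the UMIs, and control had none.

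Among the genes that were lower, Ly6c2, the surface marker of classical monocytes, had 4.87, 35.1, 28.0 and 0 CPM in Retnla high macrophages of anti-PD-1, anti-LIF, combo and control, against 262.5, 310.5, 208 and 239.8 CPM in Retnla zero ones (log2 fold change -3.15, SE 0.23, edgeR adjusted p = 1.54e-07). Cx3cr1, the fractalkine receptor of patrolling monocytes and many tissue macrophages, had 82.8, 34.5, 61.3 and 49.1 CPM in Retnla high macrophages, against 465, 310.0, 386 and 303 CPM in Retnla zero ones (log2 fold change -2.75, SE 0.17). Stab1, a scavenger receptor, had 102, 61.0, 60.6 and 36.8 CPM in Retnla high macrophages, against 416.5, 398, 410.2 and 152 CPM in Retnla zero ones (log2 fold change -2.52, SE 0.17). In all 3 genes the highest Retnla high value lay below the lowest Retnla zero value. Nt5e, which encodes the adenosine-forming enzyme CD73, had 0, 2.70, 3.19 and 0 CPM in Retnla high macrophages, against 50.0, 64.05, 34.2 and 27.6 CPM in Retnla zero ones (log2 fold change -3.94, SE 0.28). Gpr183, Ms4a14, Ch25h, Ctla2a and Spsb1 were lower by log2 fold changes of -2.93 to -2.42. Ngp, a granule gene of neutrophil precursors, was lower (-5.42, SE 0.37) in the 3 treated libraries and had no UMI in either group of control.

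Alternative activation genes were split. Counts of this and the following lists stand beside 7.56% higher and 8.46% lower over all genes tested. Of 23 tested genes of this list, 12 were higher, 3 lower and 8 did not pass, with a median log2 fold change of 0.71 against -0.02 over all genes tested. Alox15, a lipoxygenase that IL-4 induces, was higher by 3.91 (SE 0.57) at 6.48 to 34.1 CPM in Retnla high macrophages, against 0 to 1.44 CPM in Retnla zero ones. Mgl2 had 550.1, 529, 591 and 356 CPM in Retnla high macrophages, against 51.2, 226, 214 and 24.6 CPM in Retnla zero ones (log2 fold change 2.20, SE 0.30, edgeR adjusted p = 7.97e-05). Irf4, a transcription factor of alternative activation, had 39.0, 69.1, 73.3 and 24.5 CPM in Retnla high macrophages, against 6.68, 18.1, 15.8 and 3.45 CPM in Retnla zero ones (2.20, SE 0.15). Clec10a was higher by 1.08 (SE 0.16), Pparg, a lipid-sensing nuclear receptor, by 1.19 (SE 0.21) with no UMI in control, and Mrc1 by 0.71 (SE 0.18), the last not past the threshold without the anti-PD-1 library. Arg1, the arginine-degrading enzyme of the same programme, was lower: 414, 487, 827 and 98.2 CPM in Retnla high macrophages, against 893, 1805, 1771 and 226.5 CPM in Retnla zero ones (-1.33, SE 0.18, edgeR adjusted p = 7.46e-05). Tgm2 (-1.47) and Il4ra (-0.50), the IL-4 receptor chain, were lower too, Il4ra not past the threshold without combo. Of the 10 genes of type 2 receptors and signalling tested, 4 were lower and 1 higher (Tyk2), and without combo none passed.

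Lectin and scavenger receptor genes were 7 higher (Clec4b1, Mgl2, Cd209d, Clec10a, Fcrls, Clec4a2 and Mrc1) and 4 lower (Stab1, Clec4d, Clec4n and Msr1) of 15 tested, with a median of 0.59. Of 13 inflammatory monocyte genes 8 were lower, among them Ly6c2, Plac8 (-1.88) and the neutrophil markers S100a8 and S100a9, and 2 were higher. F10 was 1 of these and the other was Ccr2, the monocyte chemokine receptor, at 749.7, 721, 782 and 417 CPM in Retnla high macrophages, against 317, 465, 421 and 71.4 CPM in Retnla zero ones (1.17, SE 0.19, edgeR adjusted p = 0.000398). Without anti-PD-1, 5 genes of the list were lower. Of 15 lipid-associated macrophage genes, 5 were lower, among them Apoe (-1.99), Spp1 (-1.86), Trem2 (-1.14) and Cd9 (-1.02), and only Lpl, lipoprotein lipase, was higher, at 725, 794, 1238 and 601 CPM in Retnla high macrophages, against 90.9, 267, 414 and 126 CPM in Retnla zero ones (2.04, SE 0.21). Without combo, 3 lipid-associated genes were higher. Hypoxia and glycolysis genes were 8 lower and 0 higher of 14, with Vegfa at -1.17 and Slc2a1 at -0.88. Leaving out anti-LIF or combo left 4 of them lower.

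Among 20 macrophage chemokine genes, 5 were higher and 8 lower. Ccl6, a CC chemokine of mouse myeloid cells, had 3023, 3777, 4332 and 1754 CPM in Retnla high macrophages, against 709.5, 1254, 1508 and 201 CPM in Retnla zero ones (log2 fold change 2.01, SE 0.19, edgeR adjusted p = 1.83e-06), and its neighbour in the CC cluster Ccl9 was higher as well (1.505, SE 0.20). Ccl12 (-1.70), Cxcl9 (-1.69), a T cell chemokine induced by interferon gamma, Cxcl16 (-1.58) and Ccl8 (-1.26) were lower. Without anti-LIF or without combo, 3 chemokine genes were higher. Of 20 interferon gamma response genes 6 were lower and 1 higher, with 4 lower without anti-PD-1 or without combo. Of 9 MHC class II genes 4 were higher (H2-DMb2, Ciita, H2-DMa and H2-DMb1) and none lower. The classical class II chain H2-Ab1 (0.34, edgeR adjusted p = 0.332) and Cd74 (0.41, edgeR adjusted p = 0.259) did not pass. Without combo, 1 class II gene passed, without control 8, and in a fit of anti-LIF and combo alone 8. Complement and clearance genes were 6 lower, with Stab1, C3 and Axl among them, and 3 higher (C4b, Cfp and Pros1) of 11. Without combo, 3 complement genes were lower.

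Among the remaining lists, proliferation genes had a median of 0.71, as alternative activation had, and 9 of 19 matrix and growth factor genes were lower. The other lists here had fewer genes past the threshold, and several calls rested on few libraries. Over all genes tested 7.56% were higher and 8.46% lower, so 1 or 2 genes of a short list are little beyond that. Of 11 inflammatory cytokine genes 3 were higher, among them Il6 at 2.02 (higher in the 3 treated libraries, lower in control), and 2 lower. Of 13 STAT3 target genes 1 was higher and 2 lower, and of 8 LIF family genes Il6 and Lifr were higher. Without combo, no STAT3 target passed, and Lifr passed in neither the fit without anti-LIF nor that without combo. Matrix and growth factor genes were 9 lower, among them Mmp14 (-1.94) and Pdgfb (-1.58), and 2 higher (Areg and Fn1) of 19. Of 10 checkpoint ligand genes Havcr2 (-2.13) and Pvr were lower, of 14 type I interferon genes 2 were higher and 1 lower, of 9 resident macrophage genes outside the selection 1 was higher and 2 lower, and of the RELM family Retnlg, the only other member tested, was higher. None of 15 dissociation stress genes and none of 3 type 2 ligand genes passed. Without combo, neither Retnlg nor a type I interferon gene passed, 1 inflammatory cytokine and no matrix gene was higher, and 1 checkpoint gene was lower. Without control, 5 type I interferon and 2 stress genes were higher, and 6 resident and 4 checkpoint genes were lower. Of 17 proliferation genes 10 were higher, with 5 when combo was left out and 6 among cells of at least 3000 UMIs, and single genes differed in the 8 control cells. Mki67 had 102, 96.6, 86.1 and 319 CPM in Retnla high macrophages, against 92.8, 77.6, 45.8 and 39.4 CPM in Retnla zero ones (0.80, SE 0.205, edgeR adjusted p = 0.0124), and stood highest in control. Pcna, which did not pass, stood lowest in control, at 345.7, 435.5, 367 and 184 CPM in Retnla high macrophages.

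**Figure D3:**
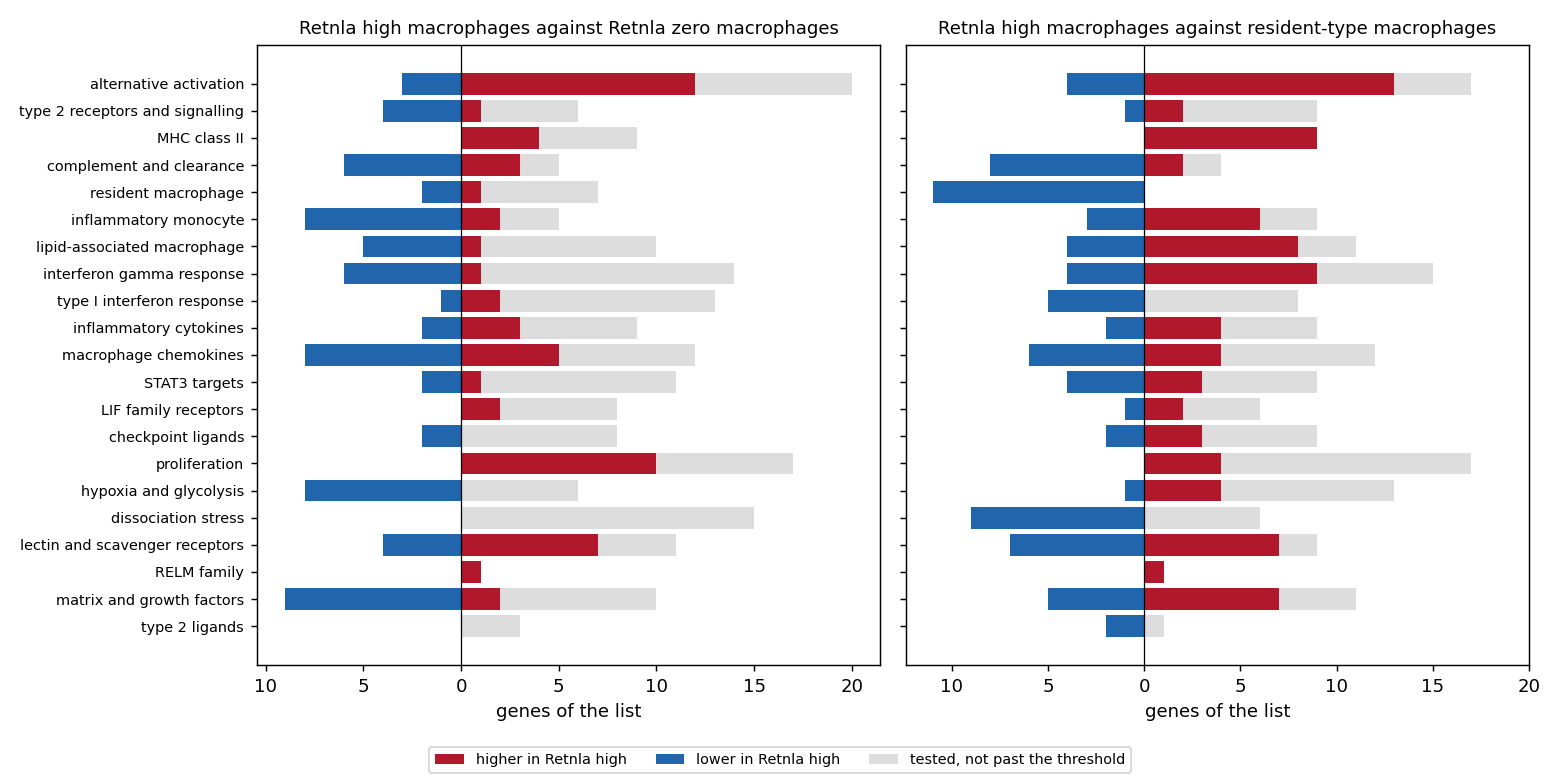
For each gene list the bar to the right gives the genes higher in Retnla high macrophages (red) with those tested but not past the threshold beside it (grey), and the bar to the left the genes lower (blue), against Retnla zero macrophages in the left panel and resident-type macrophages in the right. Alternative activation has 12 and 13 genes higher in the panels, and MHC class II 4 and 9.

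The levels of these genes were graded with Retnla within the gated macrophages, shown for anti-LIF and combo, which had 72 to 2335 cells in each range of Retnla UMIs. The values are a description, since the same contrast chose the ranges. Ear2 in anti-LIF was 207, 254.5, 1168, 1756 and 1571 CPM in cells with 0, 1 to 2, 3 to 9, 10 to 99 and at least 100 Retnla UMIs, and in combo 200.5, 242, 1425, 1774 and 2331 CPM. Macrophages with 1 or 2 Retnla UMIs thus lay near those with none, and the step came at 3 to 9. Lyz1 in combo was 69.4, 46.3, 152, 444 and 1719 CPM over the same ranges, and Aldh1a2 was 7.02, 17.7, 64.1, 184 and 378 CPM, so both continued upward among cells already above the threshold. Cx3cr1 in combo ran down, at 386, 348, 150.2, 86.0 and 9.999 CPM, as did Stab1 at 410.2, 352, 119, 91.6 and 14.6 CPM. Arg1 in anti-LIF was 1805, 1149, 927, 561 and 221 CPM. Mrc1 in combo stayed between 759.5 and 1197 CPM in all ranges.

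The genes Ear2, Lyz1, Aldh1a2, Cd226, Clec4b1 and Ms4a8a, chosen after their values were seen, were also summed per cell. At least 2 of their UMIs were found in 12.3%, 23.5%, 62.5%, 84.0% and 97.7% of anti-LIF macrophages over the same ranges, and in 15.5%, 21.6%, 65.4%, 86.7% and 100% of combo macrophages. Median UMIs per cell ran from 2476 to 6845 in anti-LIF and from 3784 to 8635 in combo between the lowest and highest range, and the part of depth in these shares was not tested. Chil3, a chitinase-like protein of alternative activation, did not follow the ranges: it had 8481 CPM in anti-LIF cells with 3 to 9 Retnla UMIs, where 2 of the 72 cells had more than 1 Chil3 UMI, and 5.71 CPM in those with 100 or more.

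**Figure D4:**
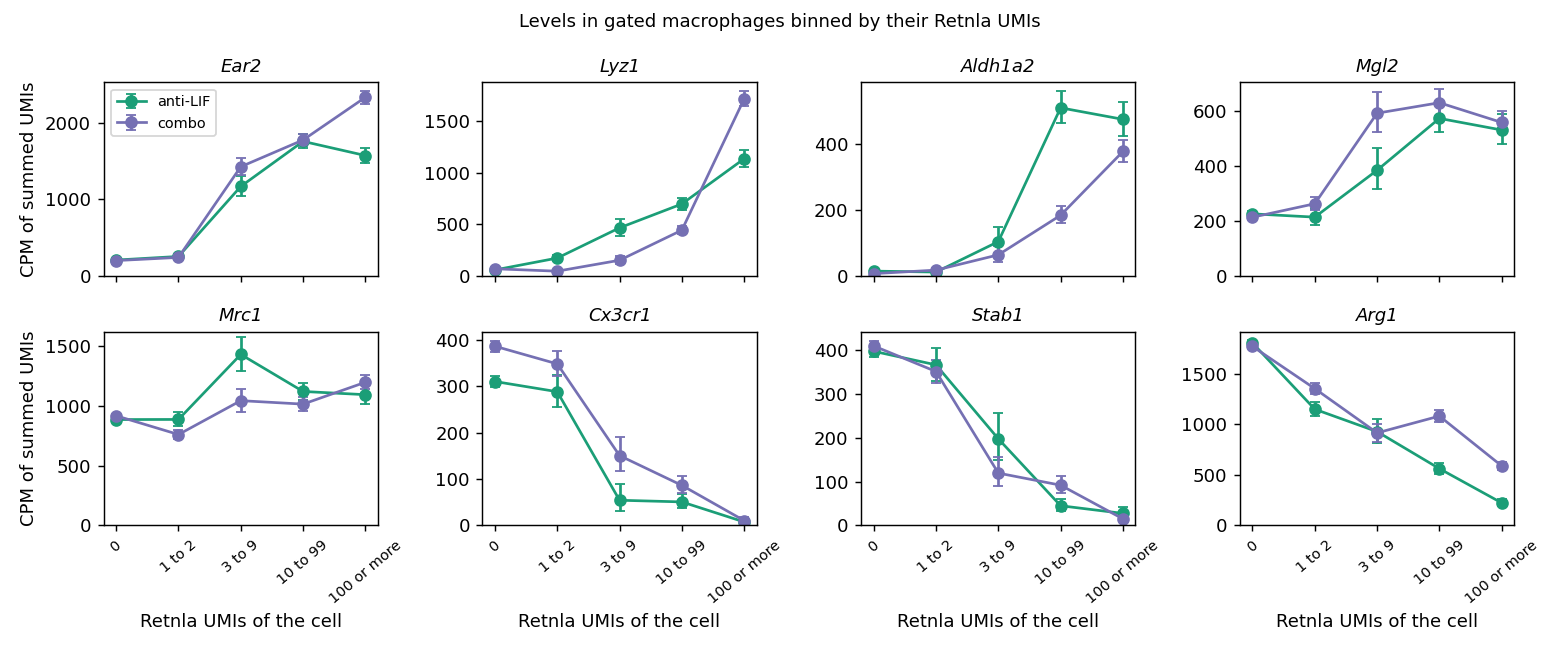
The horizontal axis gives ranges of Retnla UMIs per cell and the vertical axis CPM of UMIs summed over the cells of a range, for anti-LIF and combo, with exact 95% intervals for counting error. Ear2, Lyz1 and Aldh1a2 are higher in the ranges from 3 UMIs on, Cx3cr1 and Stab1 lower, and Mrc1 stays within 759.5 to 1430 CPM.

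The comparison with resident-type macrophages places the Retnla high cells beside the other macrophage type in which Retnla was found, although most resident-type cells had fewer than 3 Retnla UMIs. It used the 3 treated libraries, since control had no resident-type cell, with 107 (anti-PD-1), 300 (anti-LIF) and 537 (combo) resident-type cells. Retnla high macrophages had more MHC class II, Ear2, Itgax, Ccr2 and Cxcl9 RNA and less of Ccl8, Cbr2, Folr2, Pf4, Selenop and complement-related genes. Of 8778 genes tested with edgeR in the same way, 978 were higher (11.1%) and 963 lower (11.0%). With library totals in place of TMM factors the split was 741 higher and 1219 lower. Without anti-LIF, 472 were higher and 562 lower, and without combo 310 and 351.

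All 9 MHC class II genes tested were higher, with a median of 1.82 against -0.02 over all genes tested, also when any library was left out. H2-Ab1, a classical class II chain that presents peptide to CD4 T cells, had 11940, 10210 and 11640 CPM in Retnla high macrophages of anti-PD-1, anti-LIF and combo, against 2654, 3227 and 4099 CPM in resident-type macrophages (log2 fold change 1.85, SE 0.10, edgeR adjusted p = 3.49e-08). Its lowest Retnla high value lay above the highest resident-type value. Retnla zero macrophages, which also had few UMIs of the 4 resident genes, had 7769 CPM of H2-Ab1 in anti-PD-1 and 7555 CPM in combo. The higher H2-Ab1 level over resident-type cells was thus not limited to Retnla high macrophages. Ciita, the master activator of class II genes, was higher by 1.65 (SE 0.16). Ear2 had 1461, 1598 and 1974 CPM in Retnla high macrophages, against 34.2, 90.6 and 122 CPM in resident-type ones (4.39, SE 0.17, edgeR adjusted p = 5.15e-09), and Aldh1a2 189.9, 436 and 254 CPM in Retnla high macrophages, against 20.5, 42.2 and 32.7 CPM in resident-type ones (3.24, SE 0.14). The same Retnla high sums entered the comparison with Retnla zero macrophages, in which both genes were higher too. Akr1c18, Hr, Tarm1, H2-M2, F7 and Klrk1 were higher by 3.28 to 4.40. Of these, H2-M2 came from 2, 15 and 8 cells, and 10 cells held 79.4% and 82.1% of the Akr1c18 UMIs in anti-LIF and combo.

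Resident genes that the selection did not use were all lower: 11 of 11, with a median of -2.67. The groups were split on 4 genes of the same list, Lyve1, Cd163, Cd209f and Cd209g. This direction is therefore a description and not an independent result. Ccl8, a CC chemokine, had 506, 492 and 345 CPM in Retnla high macrophages, against 9216, 6972 and 7895 CPM in resident-type macrophages (log2 fold change -4.10, SE 0.12, edgeR adjusted p = 3.83e-10). Cbr2, a carbonyl reductase, had 102, 126 and 143 CPM in Retnla high macrophages, against 2008, 2390.0 and 2301 CPM in resident-type ones (-4.06, SE 0.11). Folr2, a folate receptor of resident macrophages, was lower by a log2 fold change of -2.67 (SE 0.14), and Vsig4, a complement receptor, had no UMI in the Retnla high cells and 59.8, 22.5 and 22.4 CPM in the resident-type cells. Colec12, C6, Cd209b, Fcna, Gprc5c, Adgrg1, Npl and Dmpk were the other genes furthest below, at -6.35 to -3.92. Complement and clearance genes were 8 lower and 2 higher of 12, and the higher ones were Axl and C3, which had been lower than in Retnla zero macrophages. Without combo, 1 of them was higher.

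**Figure D5:**
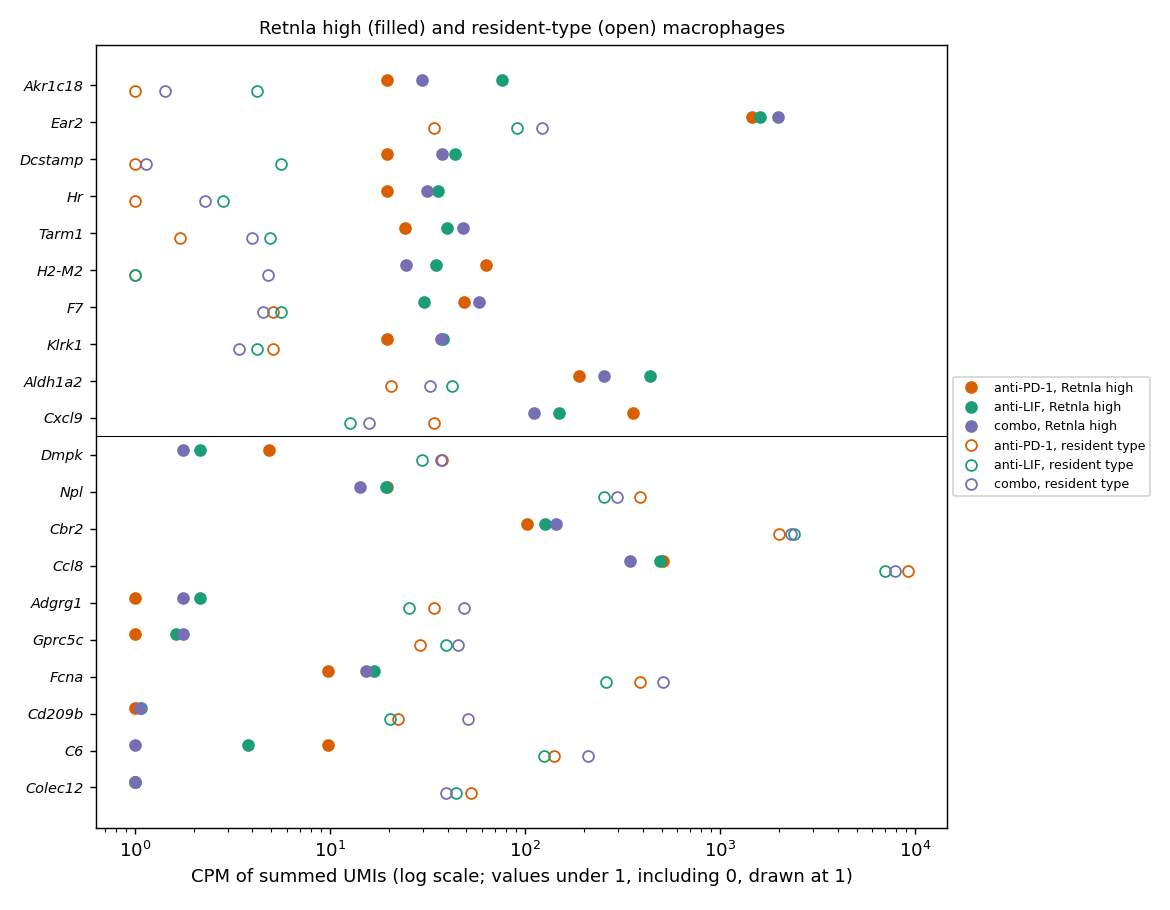
Each row is a gene and the horizontal axis its level in CPM of summed UMIs on a log scale; filled points are Retnla high and open points resident-type macrophages of the 3 treated libraries. Each filled point lies right of its library's open point above the line and left of it below; Ccl8 has 345 to 506 CPM in Retnla high and 6972 to 9216 CPM in resident-type cells.

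The alternative activation list again went both ways, with 13 genes higher and 4 lower of 21. Over all genes tested in this comparison 11.1% were higher and 11.0% lower. Chil3 is 1 of the 13 (2.60, SE 0.79), and its 1287 CPM in anti-LIF came from 8 cells. Mgl2 was higher by 1.00 (SE 0.12), whereas Clec10a was lower at -2.21 (SE 0.13) and Mrc1 at -1.12 (SE 0.09): Mrc1 had 1120.0, 1157 and 1103 CPM in Retnla high macrophages, against 2784, 2456 and 2559 CPM in resident-type macrophages. Pparg (2.35), Socs2 (2.67), Pdcd1lg2 (2.87), which encodes the PD-1 ligand PD-L2, and Irf4 (1.34) were higher. Of 19 interferon gamma response genes 9 were higher, with Cxcl9 at 3.22 (SE 0.17), and 4 lower, and Cxcl9 UMIs were held to 83.3% and 85.4% by 10 cells in anti-LIF and combo. Without combo, 3 of these genes were higher and 0 lower. Of 12 inflammatory monocyte genes 6 were higher, with Ccr2 at 1.72 (SE 0.10), and 3 lower, with none lower when combo was left out. Of 15 lipid-associated genes 8 were higher, with Lpl at 2.84 (SE 0.20), and 4 lower, with Apoe at -1.62 (SE 0.09). Dissociation stress genes were 9 lower and 0 higher of 15, type I interferon genes 5 lower and 0 higher of 13. Without combo 5 stress genes and 1 type I interferon gene were lower, without anti-LIF 2 and without anti-PD-1 9 type I interferon genes. Dcstamp, a cell fusion gene best known from osteoclasts, had 19.5, 43.7 and 37.6 CPM in Retnla high macrophages, against 0, 5.62 and 1.14 CPM in resident-type ones (4.12, SE 0.365).

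In the other lists tested against resident-type macrophages, genes went both ways or few passed. Their counts stand beside 11.1% higher and 11.0% lower over all genes tested. Lectin and scavenger receptor genes were 7 higher and 7 lower of 16, and matrix and growth factor genes 7 higher and 5 lower of 16. Macrophage chemokines were 4 higher and 6 lower of 18, inflammatory cytokines 4 and 2 of 11 with Il1b at 1.83 (SE 0.15) among the higher, and STAT3 targets 3 and 4 of 13. Hypoxia and glycolysis genes were 4 higher and 1 lower of 14, proliferation genes 4 and 0 of 17, checkpoint ligands 3 and 2 of 11, type 2 receptor genes 2 and 1 of 10, and LIF family genes 2 and 1 of 7. Tslp and Il10 were lower among 3 type 2 ligands, and Retnlg of the RELM family was higher. Without combo, 1 hypoxia gene, 1 proliferation gene and 4 matrix genes were higher, and 2 STAT3 targets were lower. Without anti-LIF, 2 proliferation genes and 1 STAT3 target were higher, and without anti-PD-1, 8 chemokine, 7 cytokine and 7 hypoxia genes were higher.

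Between libraries, few genes of the Retnla high macrophages differed between combo and anti-LIF, while those of control and anti-PD-1 rest on 8 and 33 cells. Measured genes had a mean of at least 100 CPM over the 4 libraries, which held for 1543 genes, and a fold of at least 2 was called different, with no test. Combo over anti-LIF had 1 gene higher (0.0648%) and 10 lower (0.648%). Combo over anti-PD-1 had 15 higher (0.972%) and 20 lower (1.3%). Against control, anti-PD-1 had 147 higher (9.53%) and 109 lower (7.06%), anti-LIF 148 higher (9.59%) and 74 lower (4.8%), and combo 117 higher (7.58%) and 77 lower (4.99%). The 3 comparisons with control share its 8 cells, whose summed depth was 81505 UMIs.

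The 1 gene past the fold in combo over anti-LIF was Acta2, smooth muscle actin, named after its value was seen, at 79.4 CPM in combo and 35.6 CPM in anti-LIF, and 10 cells held 76.8% of its combo UMIs. Lpl stood at 1238 [1198, 1280] CPM in combo and 794 [754, 836] CPM in anti-LIF, a log2 ratio of 0.64 [0.55, 0.73], below the fold called. The Retnla zero macrophages had the same log2 ratio for Lpl, 0.64, at 414 CPM in combo and 267 CPM in anti-LIF. Cxcl10, another interferon-induced chemokine, was at 132.5 [119, 147] CPM in combo and 312 [287, 338] CPM in anti-LIF (log2 ratio -1.23 [-1.43, -1.05]), against -0.43 in Retnla zero macrophages. The heat shock gene Hspa1b was at 119 CPM in combo and 387 CPM in anti-LIF (-1.70), and the lysosomal protease Ctsd at 326 and 759 CPM (-1.22). Ppp1ca (-1.504) and Rpl28 (-1.48) were below by about as much as in Retnla zero macrophages (-1.635 and -1.42). Gm42418, Atp5e, Rpl10a and Tacc1 were above by 0.51 to 0.83. The alternative activation genes had a median log2 ratio of 0.05 in this comparison, over 11 measured.

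Against anti-PD-1, combo cells had more Cxcl3, a neutrophil chemokine, at 149 against 14.6 CPM (log2 ratio 3.13), where the 3 anti-PD-1 UMIs came from 1 cell, and more Areg, an epidermal growth factor family ligand, at 264 against 92.5 CPM (1.48 with a lower bound of 0.86). Cavin1, Dmac1 and Flrt3 followed at 1.315 to 1.625. Against control, Areg had 19 UMIs from 4 cells in anti-PD-1, 550 in anti-LIF, 746 in combo and none in control. With a floor of 3 counts in the control cells this is at least 2.51-fold, 8.06-fold and 7.18-fold higher. Cxcl16, Col1a2, Osm and Pde4b, the next genes in anti-LIF and combo over control, had 1 or 2 UMIs in control. Ccl24, an eosinophil chemokine that IL-4 induces, had none in control and was at least 7.28-fold, 4.16-fold and 5.93-fold higher. Its UMIs came from 7 cells in anti-PD-1, and 10 cells held 68.7% of them in anti-LIF and 55.4% in combo. Retnla zero macrophages had log2 ratios over control of 5.37, 5.86 and 6.88 for Ccl24. The 11 measured alternative activation genes had median log2 ratios over control of 1.14 (anti-PD-1), 1.44 (anti-LIF) and 1.49 (combo). The 8 measured proliferation genes had medians of -1.0 (anti-PD-1), -1.74 (anti-LIF) and -1.57 (combo). Other lists had medians near those of alternative activation, with 0.83, 1.11 and 1.26 for 5 inflammatory monocyte genes, 0.78, 1.16 and 1.0 for 12 lipid-associated genes and 0.63, 1.1 and 1.13 for 14 chemokine genes. Over all measured genes the medians were between -0.09 and -0.05. The control cells also had the Pan02 marker sum of 773 CPM given above, and its part in these ratios was not tested. Beyond members of the lists, genes above in control or in anti-PD-1 over control were not named, since the 10 top cells held more of a gene's UMIs there than the naming rule allows.

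Il4 and Il13, whose products induce Retnla, were sparse in the libraries. Over all kept cells, Il4 had 0.419, 0.556, 1.64 and 0.232 CPM in anti-PD-1, anti-LIF, combo and control, in 16, 23, 56 and 14 cells with a UMI. Il13 had 0.870, 1.19, 1.46 and 1.05 CPM. Il33, an alarmin upstream of both, had 62.4, 114, 102 and 64.7 CPM, and Tslp, another epithelial alarmin, 2.80, 7.45, 8.32 and 4.61 CPM. Il10 had 16.3, 24.5, 27.6 and 3.80 CPM, and Retnla high macrophages themselves held 134 of its 1321 UMIs in anti-LIF and 194 of 2477 in combo. The anti-LIF and combo libraries stood above the other libraries in Il33, Tslp and Il10, and each value is 1 library. Cell types also differed in number, with 3229, 3134, 3556 and 439 gated macrophages. The part of cell composition in these levels was not tested.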

How the data were processed

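Single-cell RNA was measured in 4 libraries (SeekOne MM 3′ kit per the labels' protocols, each of 3 samples combined), 1 per treatment. The deposited matrices hold whole-number UMI counts per gene and barcode with lists of barcodes and genes, and the authors' aligner, counter and cell calling are not given in the sources used here. The submitters' processing notes name mm10 and Seurat 4.0.3 without a role. Library totals were 67503066 (anti-PD-1), 57720774 (anti-LIF), 94984486 (combo) and 111164731 UMIs (control), and 32158 of 32285 gene IDs are in GENCODE M21, from which gene positions were taken.

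Barcodes were kept and gated by the rule in the opening, without clustering, doublet calling or removal of free RNA. The members and lists were chosen with earlier results of these data known. UMIs were summed per library and cell group and fitted with edgeR 4.0.16 (R 4.3.3, limma 3.58.1; filterByExpr, TMM, quasi-likelihood test, library as block). The library is the pairing of the sums, since both cell groups of a sum come from the same 3 combined samples. The 14 selection genes were removed before Benjamini-Hochberg adjustment, with a threshold of 0.05. P-values rest on 4 or 3 libraries of different treatments and on groups cut on Retnla in the same cells. Against resident-type macrophages the cut was also on Lyve1, Cd163, Cd209f and Cd209g. The p-values thus measure whether a gene goes with these cuts over libraries, and not a treatment. The procedure was tested on simulated data. Between libraries only CPM, ratios (prior count 0.5) and exact Poisson or Clopper-Pearson 95% intervals were computed in Python 3.11.15 (pandas 2.3.3, scipy 1.17.1, numpy 2.4.6; figures with matplotlib 3.10.9), for genes of at least 100 mean CPM, with a floor of 3 counts. UMIs of 1 cell are not independent samples of a tumour, so intervals cover counting error only.

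Named genes were the 16 highest and 10 lowest log2 fold changes against Retnla zero macrophages, and the 10 highest and 10 lowest against resident-type macrophages. They had to pass the threshold, reach 30 CPM in the higher group and keep 1 sign in the libraries with at least 50 members, leaving out mt-, Gm and Rik genes. Between libraries the 5 highest and 5 lowest ratios were named where 10 cells held at most 50% of the UMIs. List members were added to these. Of the lowest ratios that passed this limit on 10 cells, only those of combo over anti-LIF lay away from 0 and are printed. Genes higher in control could not pass it, since control had only 8 Retnla high macrophages. Genes lower than in control by the fold were therefore counted but not named. Alternatives were DESeq2 1.42.0, no filter, no TMM, no library block, deeper cells, barcodes without UMIs of 9 genes of other cell types, other Retnla and mitochondrial limits, and leaving out each library. Members with at least 10 Retnla UMIs in the fits, and anti-LIF with combo alone, were added after seeing the data.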

Additional observations from a re-analysis of the deposited data

Results flagged for a closer look

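Cells with 3 or more Retnla UMIs outside both macrophage groups stood above the control library in each treated library. Of the kept cells they made up 0.208% in the anti-PD-1 library, 2.06% in the anti-LIF library and 2.48% in the combo library, against 0.059% in control. Most of them had no Csf1r UMI and neither Cd3 nor Dcn above the limits, 24 of 30 in anti-PD-1, 239 of 289 in anti-LIF, 311 of 407 in combo and 7 of 11 in control. These cells were shallow, with median UMIs of 1038 in anti-PD-1, 958 in anti-LIF, 873 in combo and 1411 in control, against 5222, 4636, 6386 and 9528 in Retnla high macrophages. Whether depth keeps such cells from passing the macrophage conditions was not tested.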

How the results depend on the processing

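None of the 150 genes followed against Retnla zero macrophages (named or in a list, and past the threshold) changed sign, but the number of calls moved with the setting. The 726 genes higher and 813 lower became 372 and 444 with DESeq2, 310 and 358 with no library block, 153 and 205 with mixed barcodes left out (fewer genes tested), and 1225 and 1163 with anti-LIF and combo only. Leaving out 1 library at a time gave 218 to 926 higher and 282 to 1146 lower, with the lowest counts without combo. Of the 150 genes, 87 lost no call whichever library was left out and 57 lost none under every other setting. A gene that a setting did not test was not counted as lost or reversed there, so these counts are upper limits. With mixed barcodes left out, 4940 genes were tested, against 9607 in the main fit. Against resident-type macrophages the 978 higher and 963 lower became 406 and 427 with DESeq2 and 205 and 247 with mixed barcodes left out, and 310 to 1282 and 351 to 1158 with 1 library left out. Here 118 of 172 genes lost no call whichever library was left out and 111 lost none under every other setting, again as upper limits. With mixed barcodes left out, 3184 genes were tested, against 8778 in the main fit. Reversed there were Bnip3 (0.11), Cd9 (-0.32) and Rrm2 (-0.745) with mixed barcodes left out, Cd5l with DESeq2 (-0.12) and with Retnla at least 10 (-1.62), and Chil3 with Retnla at least 10 (-1.32). The cause was not tested.

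Thinned shares in this paragraph count macrophages expected to keep at least 1 Retnla UMI, not 3, among cells of at least 2000 UMIs. The share of kept cells in anti-PD-1 was 0.153% with at least 10 Retnla UMIs, 0.551% among cells thinned to 2000 UMIs, 0.382% without the resident gate and 0.487% with mixed barcodes left out. In anti-LIF it was 1.98% with at least 5 and 1.74% with at least 10 Retnla UMIs, 2.60% with at most 10% mitochondrial UMIs, 5.13% thinned, 2.87% without the resident gate and 3.98% with mixed barcodes left out. In combo it was 2.63% with at least 2 and 1.84% with at least 10 Retnla UMIs, 2.77% with at most 10% mitochondrial UMIs, 4.77% thinned, 3.73% without the resident gate and 3.79% with mixed barcodes left out. In control it was 0.358% with mixed barcodes left out. In each of these settings anti-LIF and combo stayed above anti-PD-1 and control.

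Genes past a fold of 2 depend on the level asked for. With a mean CPM of at least 30 they were 1129 for anti-PD-1 over control, 1052 for anti-LIF over control, 1008 for combo over control, 303 for combo over anti-PD-1 and 37 for combo over anti-LIF. With mixed barcodes left out they were 417 for anti-PD-1 over control, 304 for combo over control, 198 for combo over anti-PD-1 and 40 for combo over anti-LIF, and with the mean over cells 59 for combo over anti-PD-1. The 8 control and 33 anti-PD-1 cells limit the precision of every ratio that uses them.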
